A study of Mus musculus with 2 samples.

Results

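The genes described here are 33 ligands, the secreted or shed proteins through which immune cells signal to each other: 7 interleukins, 4 members of the TNF family and interferon gamma, 7 colony-stimulating and growth factors, 11 CC chemokines and 4 CXC and XC chemokines. They were taken as every gene probe, control spots excluded, whose gene name in the array annotation is on this list. All 33 were found among the 34732 genes of the array, on 37 probes in 111 spots, and 31 of them have 1 probe. Total RNA of cultured mouse mast cells was measured on 2 single-colour (Cy3) arrays, 1 for each of the groups. Both groups were bone marrow-derived mast cells of C57BL/6 mice, grown for 2 weeks in 10 ng/mL recombinant IL-3 and for 2 further weeks in IL-3 with 10 ng/mL recombinant stem cell factor. The control group had received 200 pmol of control siRNA, and the other group 200 pmol of GATA1 siRNA. Each array holds RNA combined from the cultures of 2 animals, so the spread between animals is not visible. No stimulus such as antigen is named in the labels, and the time from transfection to harvest is not given in the sources used here. The question asked of these genes was which ligand transcripts such resting cells contain and how their signal differs when GATA1 is targeted.

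Mast cells store some mediators in granules and make others anew when the IgE receptor or other receptors are engaged. Among the latter are the type 2 interleukins (IL-4, IL-5 and IL-13), which drive IgE switching, eosinophil growth and mucus production, together with TNF, IL-6 and chemokines that draw in neutrophils, monocytes and T cells. GATA factors bind DNA at the letters GATA within a slightly longer site, and GATA2 and GATA1 are both found in mast cells. The genes for IL-4, IL-13, IL-5, IL-3 and GM-CSF (Csf2) share a stretch of mouse chromosome 11, while most CC chemokine genes lie in clusters further along that chromosome.

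Promoters are shown for the ligands whose difference lay outside the central 90% of genes of like level, as given below: Il4, Il5, Il13 and Ccl17 on the low side and Hgf, Ltb, Ccl6 and Ccl9 on the high side (Ccl4 has no entry). Il3, which stood as low as Il4, and Csf2, which lies beside Il3 and had a value of the opposite sign, are added for comparison. Each stretch runs from 250 bases before the transcription start to 30 bases after it, 5′ to 3′ on the gene's own strand, and was read from the RefSeq table of promoters for GRCm38.p6. Capitals mark a match, on either strand, to the letters that GATA factors are known to bind: AGATAA, its form with G at the end (AGATAG), its form with T at the start (TGATAA) and the form with both changes (TGATAG). A match on the other strand appears as its reverse complement, as TTATCT does in Ccl17.
Il4, chr11:53618636-53618915, minus strand: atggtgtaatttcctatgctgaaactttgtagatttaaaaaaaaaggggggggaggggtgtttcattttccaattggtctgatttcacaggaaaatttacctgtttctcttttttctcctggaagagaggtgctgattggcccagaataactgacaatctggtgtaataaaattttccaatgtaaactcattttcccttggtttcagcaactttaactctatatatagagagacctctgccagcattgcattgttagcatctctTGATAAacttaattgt
Il13, chr11:53634673-53634952, minus strand: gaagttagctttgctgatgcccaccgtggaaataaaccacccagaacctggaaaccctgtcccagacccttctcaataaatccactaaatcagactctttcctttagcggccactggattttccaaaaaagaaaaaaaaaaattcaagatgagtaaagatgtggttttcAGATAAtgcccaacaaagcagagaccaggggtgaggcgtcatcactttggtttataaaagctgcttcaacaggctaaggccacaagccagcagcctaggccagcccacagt
Il5, chr11:53720544-53720823, plus strand: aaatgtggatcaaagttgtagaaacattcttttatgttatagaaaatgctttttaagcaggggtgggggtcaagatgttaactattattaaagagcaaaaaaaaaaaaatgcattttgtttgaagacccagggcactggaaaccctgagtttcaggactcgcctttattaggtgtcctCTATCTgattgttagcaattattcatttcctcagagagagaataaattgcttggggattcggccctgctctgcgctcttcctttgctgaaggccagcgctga
Csf2, chr11:54249870-54250149, minus strand: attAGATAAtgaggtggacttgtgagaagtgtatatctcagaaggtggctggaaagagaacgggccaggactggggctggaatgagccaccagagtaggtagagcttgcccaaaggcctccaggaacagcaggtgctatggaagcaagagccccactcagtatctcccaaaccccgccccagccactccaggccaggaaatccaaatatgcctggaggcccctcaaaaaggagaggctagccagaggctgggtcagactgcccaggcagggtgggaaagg
Il3, chr11:54267250-54267529, minus strand: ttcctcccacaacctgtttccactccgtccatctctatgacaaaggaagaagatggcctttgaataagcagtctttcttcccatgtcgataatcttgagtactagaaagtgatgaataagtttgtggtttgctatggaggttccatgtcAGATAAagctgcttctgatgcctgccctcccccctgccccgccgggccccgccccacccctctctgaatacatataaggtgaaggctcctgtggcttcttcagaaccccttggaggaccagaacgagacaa
Ccl17, chr8:94810203-94810482, plus strand: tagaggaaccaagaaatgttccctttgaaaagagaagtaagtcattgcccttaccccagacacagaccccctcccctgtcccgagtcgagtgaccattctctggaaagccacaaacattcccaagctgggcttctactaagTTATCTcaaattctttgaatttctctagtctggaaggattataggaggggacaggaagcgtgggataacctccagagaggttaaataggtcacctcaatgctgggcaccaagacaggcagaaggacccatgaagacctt
Hgf, chr5:16553245-16553524, plus strand: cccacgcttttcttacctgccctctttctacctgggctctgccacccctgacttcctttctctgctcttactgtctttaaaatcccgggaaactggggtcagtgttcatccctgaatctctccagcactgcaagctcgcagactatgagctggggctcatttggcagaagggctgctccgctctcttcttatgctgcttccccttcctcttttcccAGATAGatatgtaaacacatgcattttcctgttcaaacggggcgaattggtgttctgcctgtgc
Hgf, chr5:16553651-16553930, plus strand: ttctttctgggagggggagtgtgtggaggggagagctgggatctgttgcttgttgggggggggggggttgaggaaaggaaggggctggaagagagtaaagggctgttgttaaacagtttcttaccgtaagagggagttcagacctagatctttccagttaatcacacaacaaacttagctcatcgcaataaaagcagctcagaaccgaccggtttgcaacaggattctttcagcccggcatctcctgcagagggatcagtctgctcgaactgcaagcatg
Ltb, chr17:35194257-35194536, plus strand: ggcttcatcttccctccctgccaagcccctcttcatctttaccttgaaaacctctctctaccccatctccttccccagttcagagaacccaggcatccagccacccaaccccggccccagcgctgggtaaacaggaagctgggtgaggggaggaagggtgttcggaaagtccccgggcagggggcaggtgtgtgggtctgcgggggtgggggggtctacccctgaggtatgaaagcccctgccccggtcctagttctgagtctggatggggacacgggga
Ccl6, chr11:83593058-83593337, minus strand: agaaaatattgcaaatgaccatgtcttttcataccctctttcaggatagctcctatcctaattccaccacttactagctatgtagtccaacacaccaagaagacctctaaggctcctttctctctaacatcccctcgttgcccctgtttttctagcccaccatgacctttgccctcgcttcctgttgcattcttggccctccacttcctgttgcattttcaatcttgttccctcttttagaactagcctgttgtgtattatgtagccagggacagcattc
Ccl9, chr11:83578607-83578886, minus strand: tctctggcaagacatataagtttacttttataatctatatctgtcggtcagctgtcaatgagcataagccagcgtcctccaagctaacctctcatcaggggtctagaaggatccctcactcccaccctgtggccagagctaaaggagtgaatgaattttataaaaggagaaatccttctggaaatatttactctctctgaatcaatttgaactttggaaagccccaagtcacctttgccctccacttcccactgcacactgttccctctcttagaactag
Counted from the transcription start, the match stands at position 15 in Il4, -81 in Il13, -72 in Il5, -101 in Il3, -109 in Ccl17, -247 in Csf2 and -34 in the first Hgf window. The other Hgf window, Ltb, Ccl6 and Ccl9 hold no match. The table holds a further start for Il4, whose window has TGATAG at -80. Such matches are common: 28.7% of the 32851 promoters in the table have one in a window of the same length of 280 bases, which is 32.0% of the 27025 genes when a gene counts once. Of the 25 ligands found in that table, 11 had a match, and of the 18 of them that were measured on both arrays, 9 did. Besides the genes shown, these were Il6 and Ccl1 among the measured ligands, and Il2 and Ifng among those not detected. A match describes letters in this window and not binding, which was not measured here.

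Gata1, the target of the siRNA, had a signal of 16415 with control siRNA and 3930 with GATA1 siRNA, 4.68-fold lower after scaling, so the labels and the target gene go the same way. Signals are processed signals in scanner units. Differences are log2 values, GATA1 siRNA minus control siRNA, with signals expressed relative to the array's own 75th percentile over probes, 303.2 and 340.0. Because of this scaling, a gene whose signal is a little higher on the GATA1 siRNA array can have a difference near 0. A probe counts as detected where the scanner software calls it well above background, and no spot was saturated. Over the 20399 genes detected on both arrays the differences had a median of 0.01 and an SD of 0.29. With 1 array per group there is no replicate check on any difference, no p-value is given, the number of arrays limits the precision, and a rule of size, at least 1.5-fold either way, stands in for a test. The error of a spot was judged in 2 ways, neither of which covers the difference between cultures. For the 220 measured probes printed 10 times, the SD of the log2 difference between spots had a median of 0.06 (0.16 among the dimmest of them). The scanner software's own error of each spot, carried to the log2 difference, was 0.20 to 0.41 per measured ligand. It was 0.20 alike for the bright ligands, whatever their spread between spots, and was not reduced for repeated printing. It is therefore an error stated by the software and not a spread measured here.

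Of the 33 ligands, 25 were detected on both arrays and 8 on neither. The same call was given to 59.8% of all genes with control siRNA and 62% with GATA1 siRNA, and 58.7% of all genes were detected on both. The ligands not detected were Il2, the T cell growth factor, Il10, an anti-inflammatory interleukin, and Ifng, Lta, Areg, Ccl22, Cxcl1 and Xcl1, which encode interferon gamma, lymphotoxin alpha, the epidermal growth factor receptor ligand amphiregulin and 3 chemokines. Their signals lay between 3.05 and 6.05 with control siRNA and between 2.67 and 9.77 with GATA1 siRNA. The dimmest probes called well above background on these arrays read 15.2 and 13.3, so these ligands have no difference that could be given. Il2, Il10, Lta and Areg did pass the scanner's other call on both arrays, for a signal significantly above background. The detected probes read from 17.0 to 94635 with control siRNA and from 16.2 to 136971 with GATA1 siRNA. The signal of a probe depends on its sequence, so signals were compared between arrays for the same probe and not between ligands.

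**Figure D1:**
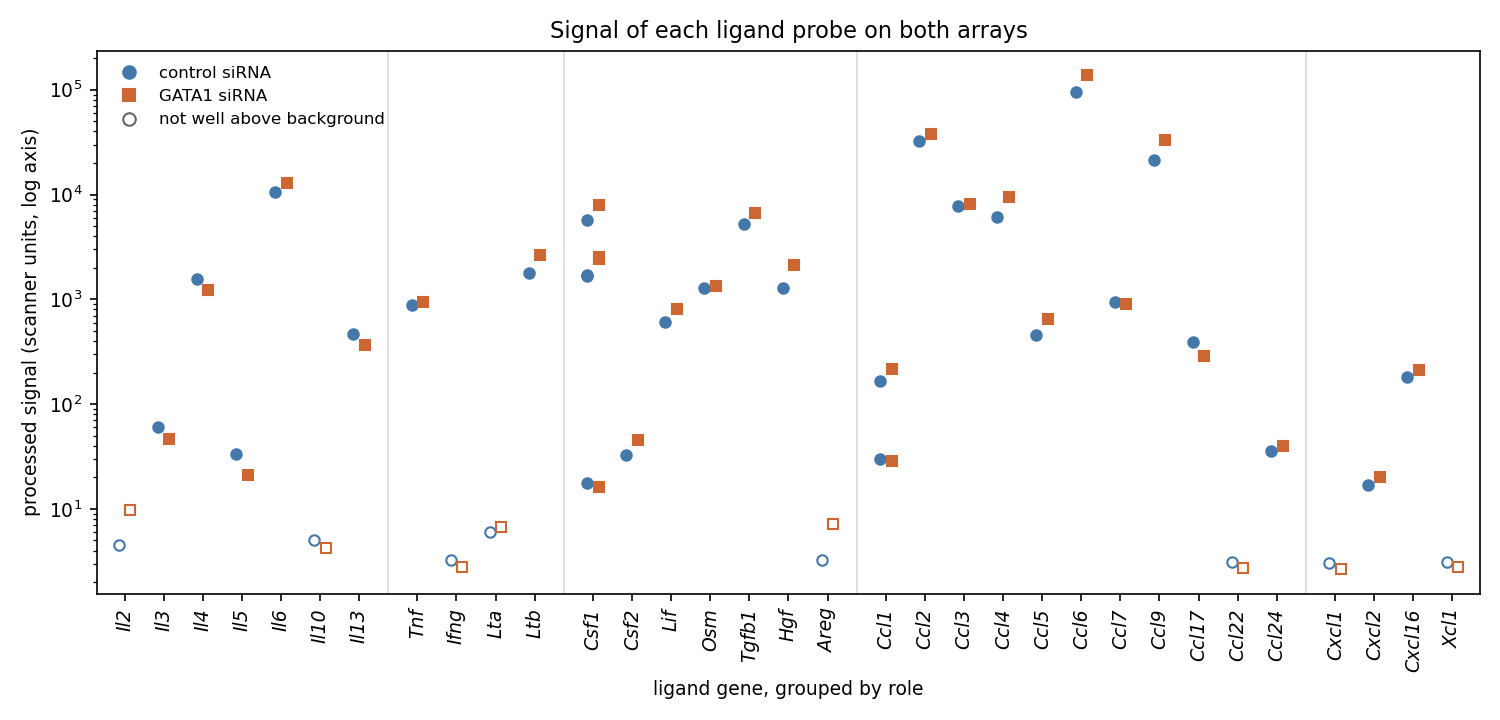
Processed signal (scanner units, log axis) of each ligand probe on the control siRNA array (circles) and the GATA1 siRNA array (squares), with ligands grouped by role and open symbols where the probe was not well above background. The 8 ligands with open symbols read at most 6.05 with control siRNA and 9.77 with GATA1 siRNA, and the levels of different probes are not comparable.

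No ligand was at least 1.5-fold higher on the GATA1 siRNA array (background 1.83% of the 20399 genes), and 2 of the 25 were at least 1.5-fold lower (background 2.76%, or 4.59% in either direction). These were Il5, at 1.76-fold, and Ccl17, at 1.52-fold. None reached 2-fold in either direction (background 0.902%). The median over the 25 ligands was 0.05, with 14 above 0 and 11 below (4 of them with a sign that depended on the setting), beside 52.7% of all measured genes above 0. The values ran from -0.82 for Il5 to 0.56 for Hgf.

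**Figure D2:**
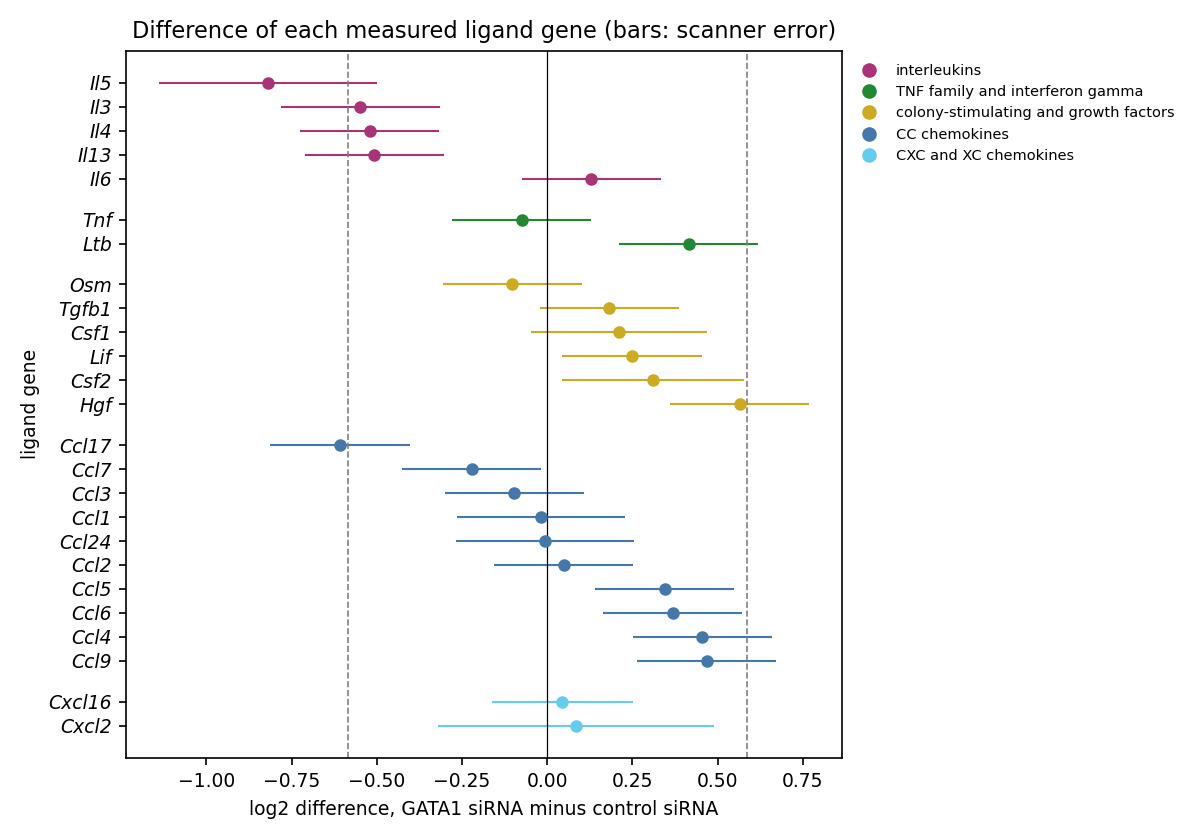
Log2 difference (GATA1 siRNA minus control siRNA) of the 25 ligands measured on both arrays, coloured by role, with bars for the scanner software's error of a difference and dashed lines at 1.5-fold. Il3, Il4, Il5 and Il13 stand together on the left between -0.82 and -0.51, and only Il5 and Ccl17 lie beyond a dashed line.

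The interleukins had the lowest median of the roles, -0.52, and 4 of the 5 measured were below 0. Of all measured genes, 52.7% were above 0. Il5, the growth factor of eosinophils (probe at chr11:53538468-53538527, mm9), read 33.1 with control siRNA and 21.0 with GATA1 siRNA. Its difference was -0.82 (scanner error 0.32, 1 spot), and it fell by the rule of size. It is dim, and genes with a mean signal under 100 passed the rule more often, 6.16% of them downward and 3.43% upward, against 1.33% and 1.16% of brighter genes. With another background correction, the normexp method with an offset of 50, the difference of Il5 was -0.34 and did not pass the rule. That offset exceeds both signals of Il5 and compresses their ratio, so this setting cannot decide whether Il5 passes.

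Il4, which drives IgE switching and T helper 2 cells, is the best measured of the group because its probe is printed 10 times. Its signal was 1569 with control siRNA and 1226 with GATA1 siRNA, a difference of -0.52, which is 1.43-fold lower and short of the rule. Relative to each array's 75th percentile, its spots read 4.90 to 5.44 with control siRNA and 3.47 to 3.71 with GATA1 siRNA. The ranges did not overlap, and the SD of the difference between spots was 0.03. The difference was therefore far larger than the error between spots, while the error between cultures is not known. How many probes of other genes printed 10 times also had ranges without overlap is not given here. Il13, which acts through the IL-4 receptor chain on epithelium and smooth muscle, read 466 and 368. Its difference was -0.51 (1.42-fold lower, scanner error 0.20, 1 spot). Il3, the growth factor in which these cells were kept and which mast cells also make, read 60.1 and 46.1. Its difference was -0.55 (1.46-fold lower, scanner error 0.23, 1 spot), or -0.36 with the normexp background correction, whose offset compresses the ratios of dim signals. The IL-3 added to the cultures was protein and not RNA. Over all measured genes, 1.07% were lower than Il5, 3.21% lower than Il3, 3.72% lower than Il4 and 3.95% lower than Il13.

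Il6, an acute-phase and B cell cytokine, differed from these 4. Its signal was 10575 with control siRNA and 12976 with GATA1 siRNA, a difference of 0.13. Its 2 spots did not overlap (34.1 and 35.6 against 38.1 and 38.2 relative to the 75th percentile), but the difference is below its scanner error of 0.20. The sign of all 5 interleukin differences was the same in each alternative setting in which they had a value. T cells and basophils also make IL-4, so their markers were read beside these values. The sums of relative signal given here and below weigh the brightest probes most. T and NK cell markers had 5 of 9 genes on the array detected, with Cd3g, Cd8a, Klrb1c and Ncr1 not detected (Trac has no probe by that name), and their summed relative signal was 5.78 with control siRNA and 5.68 with GATA1 siRNA. The T and NK cell markers furthest from 0 were Gzma (0.49), Nkg7 (0.34), Lck (-0.17) and Cd3e (-0.14), none past the rule. Gzma is dim (26.8 and 42.2), and the value of Nkg7 is the mean of 2 probes that disagreed, at 0.06 and 0.63. The 3 basophil markers stood above 0, Mcpt8 at 0.29, Prss34 at 0.24 and Cd200r3 at 0.07, with a sum of 185 and 216. Mast cell markers were detected 10 of 10, with a median of -0.06 and a sum of 2608 and 2400. None passed the rule, and those furthest from 0 were Tpsb2 (-0.55), Il1rl1 (-0.32), Fcer1a (-0.17) and Cma1 (-0.12). The part of these cell types in the interleukin values was not tested, and in such RNA of whole cultures fewer cells of a type and less RNA per cell cannot be told apart.

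**Figure D3:**
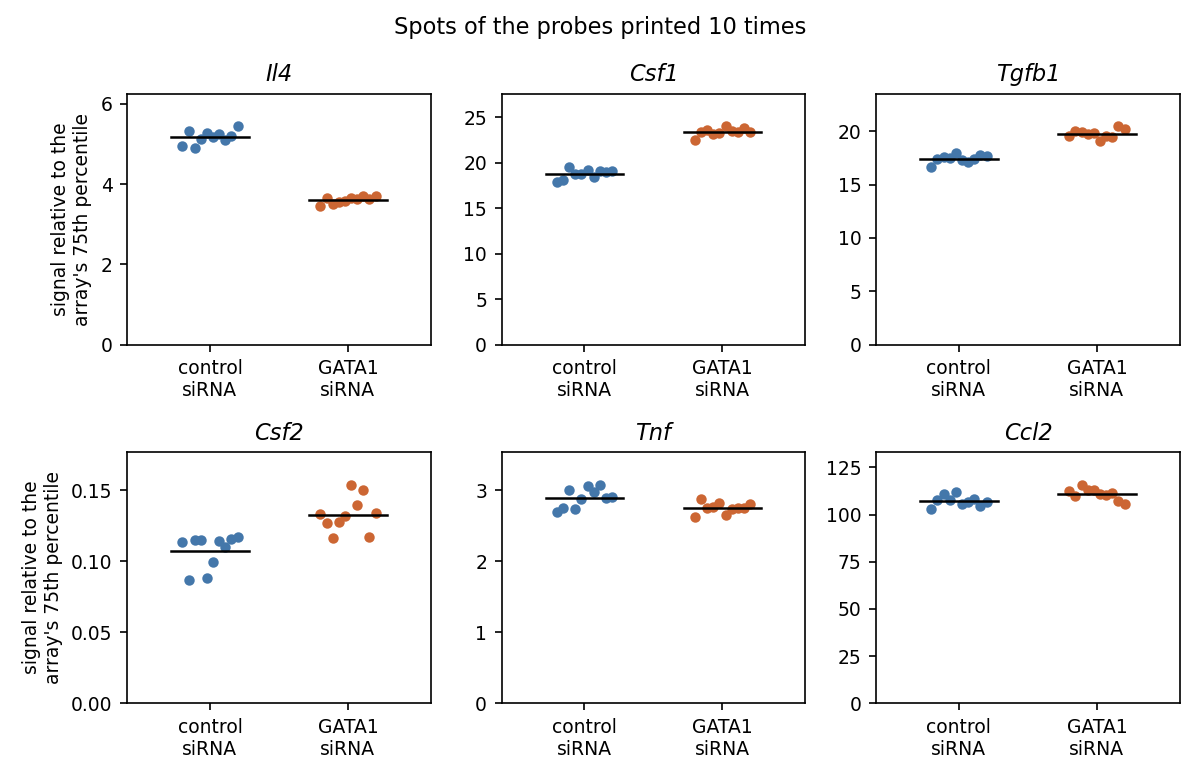
Signal of each spot relative to its array's 75th percentile for the 6 detected ligands printed 10 times, by array, with a line at the mean and axes from 0. The spots of Il4, Csf1 and Tgfb1 do not overlap between the arrays, with Il4 lower and Csf1 and Tgfb1 higher on the GATA1 siRNA array, while those of Csf2, Tnf and Ccl2 overlap. The share of other repeated probes without overlap is not given.

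Of the TNF family, 2 of the 3 members were detected, and interferon gamma was not. Tnf, the inflammatory cytokine that mast cells can also store, read 878 and 935, a difference of -0.07 over 10 spots. Its spots overlapped, at 2.69 to 3.08 with control siRNA and 2.62 to 2.87 with GATA1 siRNA relative to the 75th percentile. Ltb, lymphotoxin beta, which signals in lymphoid organs as a complex with lymphotoxin alpha, read 1780 and 2661, a difference of 0.41 (1.33-fold higher, scanner error 0.20). The gene for its partner, Lta, was not detected, and its 10 spots had a mean of 6.05 and 6.76. The probes of Ltb, Tnf and Lta lie within 7.24 kb on chromosome 17 (chr17:35333097-35340334, mm9).

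Most colony-stimulating and growth factors had values above 0, unlike the interleukins. Of 6 measured, 5 were above 0 (background 52.7% of all measured genes), the median was 0.23, and none passed the rule. Hgf, hepatocyte growth factor (probe at chr5:16124829-16124888, mm9), had the highest value of all ligands. Its signal was 1294 with control siRNA and 2147 with GATA1 siRNA, a difference of 0.56, or 1.48-fold, with a scanner error of 0.20. Only 2.04% of all measured genes were higher than Hgf, and with the scaling of the authors' deposited table its value was 0.63, which passes the rule. Lif, an IL-6 family cytokine, read 607 and 810 (0.25), and Osm, oncostatin M of the same family, 1294 and 1352 (-0.10), and their probes lie within 31.9 kb on chromosome 11.

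Csf1, the macrophage colony-stimulating factor, has 4 detected probes, which gave values of both signs. The probe printed 10 times read 5694 and 7953, a difference of 0.32, with spots at 17.9 to 19.6 and 22.6 to 24.0 relative to the 75th percentile and no overlap. A pair of neighbouring single-spot probes gave 0.43 (1690 and 2548) and 0.37 (1683 and 2440). The remaining probe, which lies apart from them at chr3:107553659-107553718 (mm9) and is dim, read 17.5 and 16.2 and gave -0.27 with a scanner error of 0.42. The mean over the 4 was 0.21. Tgfb1, which restrains inflammation and favours fibrosis, read 5288 and 6728, a difference of 0.18. Its 10 spots did not overlap (16.7 to 18.0 against 19.1 to 20.5), but the difference is below its scanner error of 0.20. Csf2, the gene for GM-CSF, read 32.4 and 45.1, a difference of 0.31, but its 10 dim spots touched in range (0.0868 to 0.117 against 0.116 to 0.154) and their difference had an SD of 0.23. With the normexp background correction, whose offset compresses the ratios of dim signals, Csf2 stood at 0.05. Values of dim probes could also shift downward in that setting, as that of Cxcl2 did from 0.08 to -0.10.

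The 10 measured CC chemokines had a median of 0.02. In every setting in which they had a value 4 stood above 0 (Ccl4, Ccl5, Ccl6 and Ccl9) and 3 below (Ccl3, Ccl7 and Ccl17), while the sign of Ccl1, Ccl2 and Ccl24 depended on the setting. Ccl17, which draws T helper 2 cells through CCR4 (probe at chr8:97335770-97335829, mm9), read 390 with control siRNA and 287 with GATA1 siRNA, a difference of -0.61 (scanner error 0.20, 1 spot), and it fell by the rule of size. This value is close to the rule and did not pass it with the normexp background correction (-0.50) or the authors' deposited table (-0.55). Ccl22, the other ligand of CCR4, was not detected. Ccl7, a monocyte attractant, read 947 and 911 (-0.22), and Ccl3, the ligand MIP-1 alpha, 7784 and 8161 (-0.10).

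At the other end stood Ccl9, Ccl4, Ccl6 and Ccl5, none of which reached 1.5-fold. Ccl9, a CCR1 ligand found in rodents, read 21227 and 32946, a difference of 0.47. Ccl4, known as MIP-1 beta, read 6168 and 9481, a difference of 0.45. Ccl6, close kin of Ccl9, read 94635 and 136971, a difference of 0.37. Ccl5, known as RANTES, read 460 and 655, a difference of 0.35. All 4 had a scanner error of 0.20, and their sign was the same under every alternative. Ccl2, the main monocyte attractant, read 32534 and 37720. Its difference was 0.05, with 10 spots that overlapped (103 to 112 and 106 to 116 relative to the 75th percentile). Ccl24, an eosinophil attractant, read 35.6 and 39.7 (-0.01). The 2 probes of Ccl1, a CCR8 ligand, disagreed, with -0.24 for the dimmer (30.1 and 28.5) and 0.21 for the brighter (167 and 217). Of the CXC and XC chemokines only Cxcl16, at 182 and 210 (0.04), and Cxcl2, at 17.0 and 20.2 (0.08), were measured, and both differences lay within their scanner error. The sign of Cxcl2 also depended on the setting, and no direction is given for it or for Ccl1, Ccl2 and Ccl24.

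No member probe shares a run of 20 bases with a probe of another gene, so near-identical probes were not found within the chemokine families. Whether a probe also binds the transcript of a relative was not looked at. Macrophages and neutrophils also make several of these chemokines. Many of their markers had higher values on the GATA1 siRNA array: 9 of the 9 measured neutrophil markers were above 0 (background 52.7%) and 5 passed the rule upward (background 1.83%). Among these 5 were Ltf (0.79), Ngp (0.75), Camp (0.67) and S100a8 (0.61). The summed relative signal of the neutrophil markers was 93.9 and 138. Of 10 measured macrophage and monocyte markers, Cd68 (1.07), Ccr2 (0.72) and Adgre1 (0.63) passed the rule upward and Cx3cr1 (-0.94) downward, with C1qa not detected on either array and a sum of 17.9 and 27.5. Dendritic cell markers, of interest for Ccl17, had 8 of 9 above 0 and none past the rule, with H2-Aa at 0.58, Itgax at 0.52, H2-Eb1 at 0.48 and H2-Ab1 at 0.43, and their sum was 11.7 and 15.7. B cell markers were detected in 2 of 5, Cd79a (-0.38) and Cd79b (-0.05), with a sum of 0.303 and 0.254. The part of these cell types in the values of Ccl4, Ccl5, Ccl6, Ccl9, Ltb, Hgf, Csf1 and Ccl17 was not tested.

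The spread of differences depends on level, so each ligand was also set beside the 1019 or 1020 measured genes of its band of mean level, taken over both arrays. By construction 10% of all genes lie outside the central 90%. Of the 25 ligands, 4 lay below it (Il4, Il5, Il13 and Ccl17) and 5 above it (Ltb, Hgf, Ccl4, Ccl6 and Ccl9), and 16 were within, Il3 among them. Csf1, also within, was placed by the mean over its 4 probes, 0.21, which includes its dim probe. With the stricter filter, which drops that probe, Csf1 stood at 0.37, a value that was not placed in a band. Il4 had 1.37% of the like genes below it, Ccl17 1.37%, Il13 2.16% and Il5 2.84%. Ccl9 had 0.392% of the like genes above it, Hgf 0.98%, Ccl6 1.08%, Ltb 1.86% and Ccl4 1.96%. These are places in a distribution of genes on 1 pair of arrays and not tests. By a rule added after the values were seen, a difference of at least 2 times its scanner error, 5 ligands were lower (Il3, Il4, Il5, Il13 and Ccl17, background 3.83%) and 4 higher (Ltb, Hgf, Ccl4 and Ccl9, background 3.45%). For bright ligands, whose scanner error was 0.20 alike, this is close to a rule of fixed size.

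**Figure D4:**
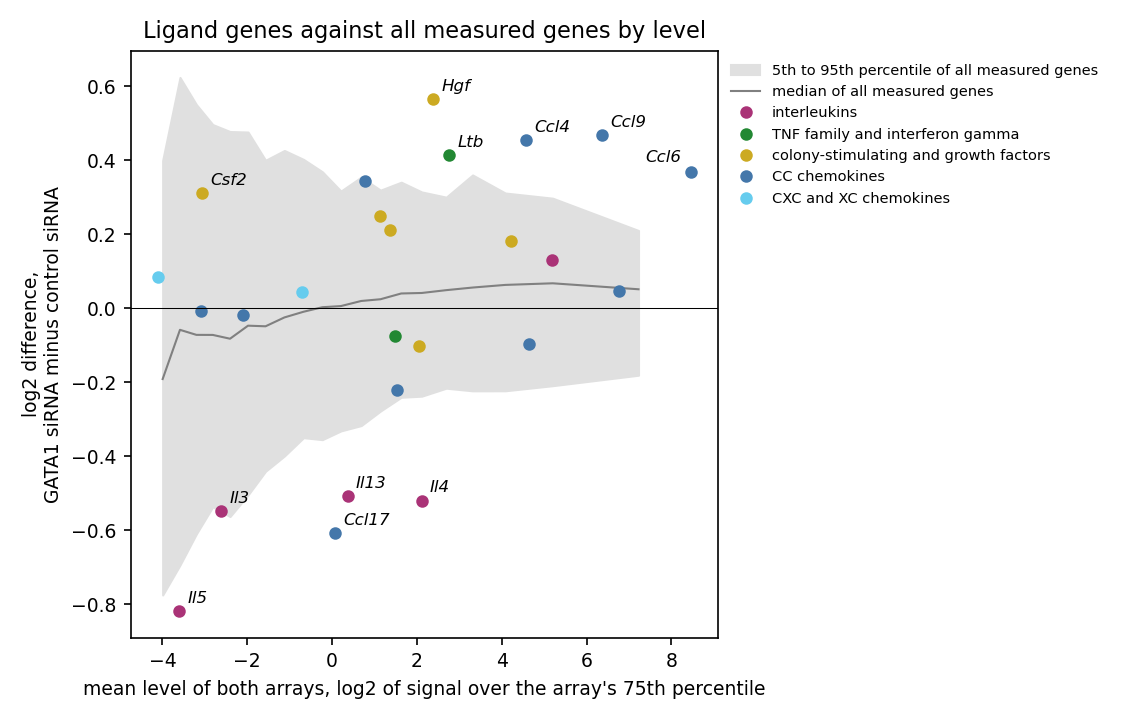
Log2 difference (GATA1 siRNA minus control siRNA) of the 25 measured ligands against their mean level on both arrays (log2 of the signal over the array's 75th percentile), with the median (line) and the 5th to 95th percentile (grey) of all measured genes by level. The grey band is wider at low levels, and 4 ligands lie below it and 5 above it, with Il3 at its lower edge.

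On chromosome 11 the probes of Il4, Il13, Il5, Csf2 and Il3 lie within 653 kb (chr11:53426076-54078646, mm9, coordinates of the array annotation). Il4 and Il13 are 18693 bp apart, Il13 and Il5 93581 bp, and Csf2 and Il3 17788 bp. The 4 interleukins of this stretch stood between -0.82 and -0.51, and Csf2, next to Il3, at 0.31. The 18 other genes and transcript models measured in the stretch and its flanks of 100000 bp ranged from -0.33 to 0.36, with a median of 0.00. None of the 18 passed the rule (background 4.59% in either direction). Among them Rad50, between Il13 and Il5, stood at -0.08, Kif3a beside Il4 at -0.24 and Irf1 beyond Il5 at 0.36.

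The probes of Ccl5, Ccl9, Ccl6, Ccl3 and Ccl4 lie within 139 kb of the same chromosome (chr11:83339296-83478111, mm9). There 4 of the 5 ligands were between 0.35 and 0.47 and Ccl3, 16635 bp from Ccl4, was at -0.10. The 5 other measured genes and flanking models were all above 0 (background 52.7% of all measured genes). They ran from 0.11 to 0.61 with a median of 0.21, and Wfdc21 (0.61) passed the rule upward (background 1.83%). The neighbours of Ccl17 on chromosome 8 (chr8:97274709-97335829, mm9, with flanks) had higher values. Of 9 other measured genes there, the lowest stood at -0.07. The chemokine Cx3cl1 (0.80) and Dok4 (0.90), 2 of the 9, passed the rule upward (background 1.83%).

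**Figure D5:**
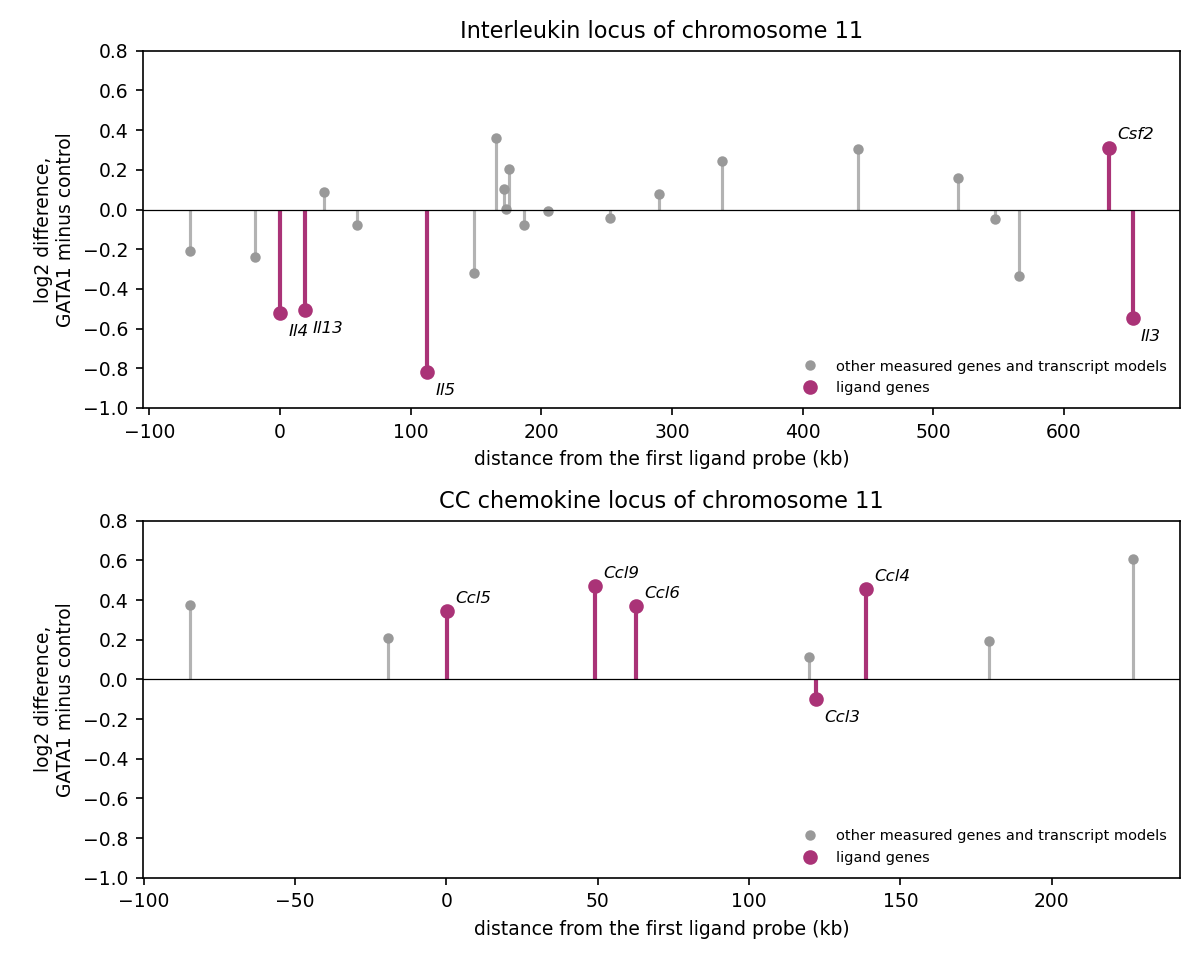
Log2 difference (GATA1 siRNA minus control siRNA) of the ligand genes (purple) and the other measured genes and transcript models (grey) against distance from the first ligand probe in kb, for the interleukin stretch and a CC chemokine cluster of chromosome 11. The 4 interleukins stand lower than each of the 18 grey points, and Csf2 beside Il3 points upward. In the chemokine cluster Ccl3 alone lies below 0.

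The receptors of these ligands were read from a list of 36 genes, of which 28 were measured. They had a median of 0.10, with 17 above 0 (background 52.7% of all measured genes), 2 past the rule upward (background 1.83%) and none downward (background 2.76%). Those past the rule were Ccr2, the receptor of Ccl2 and Ccl7, at 1233 and 2278 (0.72), and Tnfrsf1b, a TNF receptor, at 276 and 482 (0.64). Ccr3, the receptor of Ccl24, stood at -0.56 and Cxcr6, the receptor of Cxcl16, at -0.49, both on dim probes. The receptor chains of the interleukins that stood low were nearer 0: Il3ra was at -0.10, Il4ra at 0.11 and Il5ra at -0.17. Csf2rb, the chain that the receptors for IL-3, IL-5 and GM-CSF share, was at 0.00. For several detected ligands a receptor gene was called on neither array: Il13ra1 for Il13, Lifr for Lif, Osmr for Osm and Ccr4 for Ccl17. This concerns single genes and not whole receptors, since Il4ra, the chain through which IL-13 also acts, was detected.

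Of 45 regulators of cytokine genes (NF-kappaB, NFAT, AP-1 and EGR factors, feedback inhibitors and RNA decay factors), 43 were measured. Their median was 0.13, with 36 above 0 (background 52.7% of all measured genes), 1 past the rule upward (background 1.83%) and none downward (background 2.76%). That gene was Maf, a transcription factor known for activating Il4 in T cells, which read 115 and 232 (0.85) while Il4 stood at -0.52. The next were Fos (0.55), an AP-1 subunit induced early after stimulation, Socs3 (0.51), an inhibitor of cytokine receptor signalling, and Tnfaip3 (0.45), an inhibitor of NF-kappaB. None of these 3 passed the rule. Over all measured genes the median difference was -0.19 in the dimmest band of level and 0.05 in the brightest. The regulators were not set beside genes of like level.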

How the data were processed

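Signals of 2 arrays, 1 control siRNA and 1 GATA1 siRNA, were used, grouped by the samples' transfection labels. The spot intensity values are the processed signals that the authors deposited, made with Agilent Feature Extraction 10.7.3.1 per the file headers (single-colour protocol, mm9 array annotation), which subtracts background and detrends across the array. No scaling between arrays is recorded there. The authors also deposited a table of intensity, which matches the processed signals over a constant per array, the median of its spots (21.9 and 23.6). The steps behind it are not given in the sources used here, and it served as an alternative.

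Control spots and 234 spots marked as outliers were left out, 1 member spot of Il10 among them. Repeated spots were averaged on the log2 scale, signals were expressed relative to the array's own 75th percentile over 55659 probes, and probes of a gene that were well above background on both arrays were averaged. On the arrays, 52.7% and 55.2% of probes were well above background. Genes other than the ligands were named through RefSeq tables by accession (27235 probes), symbol (3581) or synonym (565), and 24300 probes kept their name on the array. The scripts (Python 3.11.15, numpy 2.4.6, pandas 2.3.3) were tested on simulated data.

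All 33 ligands are named, with Gata1 and the 4 members of each further list with the largest absolute difference. Neighbours on a chromosome, receptors named as partners of a ligand, other genes past the rule and markers named as not detected were chosen after their values were seen. So were the eosinophil markers Prg2 and Ear1. The ligands, lists and rules were chosen with earlier results of these data known. Alternatives were normexp background correction (offset 50, limma 3.58.1 in R 4.3.3), scaling to the median, by quantiles, by loess (span 0.4) and by the authors' table, another percentile base, no filter and a stricter filter (signal of 50), the brightest or the median probe, outlier spots kept, spots in patches left out, another detection call, and size rules of 2-fold and 3-fold. A rule of 2 times the scanner error was added after the data were seen. The value of 1 receptor gene is not reported here.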

Additional observations from a re-analysis of the deposited data

How the results depend on the processing

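The 12 alternatives gave 295 values for single ligands. Of these, 248 moved by less than the spot error, 47 by more, and 0 reversed a called value. Many of these values could hardly move. Without the filter on dim probes each measured ligand kept its value. The choice of probe and the stricter filter can change only Csf1 and Ccl1, which have several probes. Scaling to the median, the authors' table and the other percentile base shift all ligands alike. Only Il5 and Ccl17 were called, so these counts and the kept signs are no measure of robustness. The sign was the same throughout for 21 ligands and depended on the setting for Ccl1, Ccl2, Ccl24 and Cxcl2. The count of ligands lower by 1.5-fold, 2 as reported, was 0 with normexp background correction, 1 with the authors' table, 1 with the stricter filter (which leaves 20 ligands and drops Il5), 0 at 2-fold and 0 at 3-fold. By 2 times the scanner error, a rule added after the data were seen, it was 5. The count of ligands higher, 0 as reported, was 1 with the authors' table (Hgf), 2 with no filter on dim probes (Il2 and Areg, both not well above background) and 4 by the scanner error. The median over the ligands, 0.05 as reported, was 0.11 with the authors' table, which moves the median of all genes from 0.01 to 0.07, and 0.16 with the stricter filter, which leaves fewer genes. The cause of the other changes was not tested. Of all genes, 1.83% were higher and 2.76% lower by 1.5-fold as reported, 2.50% and 2.20% with the authors' table, 2.40% and 2.07% with loess, 0.544% and 0.779% with normexp, 5.15% and 7.91% with no filter, and 1.17% and 1.33% with the stricter filter. Detection is the scanner's own call, which scaling and background correction do not touch. On each array, 29 ligands passed its other call, for a signal significantly above background, with Il2, Il10, Lta and Areg added to the 25. The share of all genes that passed this call is not given here. Of the 1697 spots in patches, 2 belonged to ligands, 1 of 10 for Tgfb1 and 1 of 10 for Csf1. No paired analysis was possible because each group is 1 array, and for the same reason no replicate could be left out. Dim probes limit Il5, Il3, Csf2, Cxcl2 and Ccl24. With normexp, whose offset of 50 compresses the ratios of dim signals, Il5 stood at -0.34, Il3 at -0.36 and Csf2 at 0.05. Dim values did not only shrink toward 0 in this setting. Cxcl2 went from 0.08 to -0.10 and Ccl24 from -0.01 to -0.08, so the kept sign of Il5 and Il3 there carries little weight.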

Other observations

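Ligands of the same families that are not among the 33 were read from a list of 65 genes, of which 64 are on the array and 30 were measured on both arrays. Their median was 0.07, with 18 above 0 (background 52.7% of all measured genes). The rule of 1.5-fold was passed upward by 5 of them, beside 1.83% of all genes. Cx3cl1, a membrane-bound chemokine, read 80.3 with control siRNA and 157 with GATA1 siRNA (0.80). Il7, a lymphocyte growth factor, read 65.1 and 125 (0.78). Hbegf, a ligand of the epidermal growth factor receptor, read 113 and 205 (0.70). Il34, which signals through the receptor of Csf1, read 16.4 and 29.6 (0.68), and Il11, an IL-6 family cytokine, 17.3 and 30.9 (0.67), both on dim probes. The rule was passed downward by Ppbp, a platelet chemokine, which read 172 and 116 (-0.74).

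All 6 eosinophil markers, of interest beside Il5, were detected on both arrays (background 58.7% of all genes). Epx (-0.85) and Prg3 (-0.71) passed the rule downward (background 2.76%) and Siglecf (0.60, dim) upward (background 1.83%). Ccr3, also dim, stood at -0.56. Prg2 read 6176 and 4937 (-0.49), and Ear1 stood at 0.03. The summed relative signal of the eosinophil markers was 25.3 with control siRNA and 18.0 with GATA1 siRNA, and most of it comes from the bright probe of Prg2. Il5ra, the receptor chain for IL-5, read 495 and 494 (-0.17).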
